A study of Mus musculus with 23 samples.

Results

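The comparison followed maternal transcripts from the germinal vesicle (GV) oocyte to the zygote when the mother lacked Cxxc1 in her oocytes. It set 3 zygote libraries against 3 GV oocyte libraries, all within the Zp3-Cre deletion. Its members were the genes with an FPKM (fragments mapped to a gene, scaled by its length and by the library's mapped fragments) of at least 1 in at least 2 of these 6 libraries, which gave 11596 of the 24506 entries of the deposited table. Of these, 1192 reached that level in GV libraries alone, 197 in zygote libraries alone and 10207 otherwise.

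The GV oocytes came from Cxxc1 fl/fl;Zp3-Cre females of 3 weeks, and the zygotes from females of that genotype mated to wild-type males. The parallel change was taken from 3 GV libraries of 3-week wild-type females and 3 zygote libraries from wild-type females and males. Wild-type GV oocytes of 3 months and 2-cell embryos of both genotypes served as references, and all 23 libraries in 8 groups shared 1 estimate of the spread. Zp3-Cre acts in growing oocytes, so follicle cells keep the gene, and the zygotes carry a wild-type paternal allele. The labels give no age for the mothers of the zygotes, so stage and age of the female cannot be told apart, and they do not say whether libraries came from separate females or collections, so a p-value speaks of the spread among these libraries alone, part of which may be technical.

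CFP1, the product of Cxxc1, binds unmethylated CpG through a CXXC zinc finger and belongs to the SETD1 complexes, which methylate histone H3 at lysine 4. A fully grown GV oocyte is nearly silent in transcription and holds a store of mRNA made during growth. Meiotic maturation sets off both the translation of dormant messages and the removal of others, in which BTG4 brings the CCR4-NOT deadenylase to mRNA, and the embryonic genome becomes active mainly at the 2-cell stage. The question put to the data was which of the stored transcripts were lost, kept or relatively gained by the zygote stage without Cxxc1.

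Cxxc1 itself was at 0.893, 1.02 and 1.49 FPKM in deletion GV oocytes and at 1.29, 1.11 and 1.61 FPKM in deletion zygotes, against 39.9, 37.9 and 41.5 FPKM in wild-type GV oocytes and 29.1, 24.03 and 30.7 FPKM in wild-type zygotes. Its level was low in all 6 deletion libraries and did not pass the test for a change between the stages as deposited (log2 change 0.14 ± 0.25995 SE, adjusted p = 0.679), while under quantile normalization it had a called rise of 0.65 (adjusted p = 0.0118). Reads from exons outside the deleted part can remain in such a value. The 10 oocyte genes used to check the label were high at both stages, among them Zp3, Gdf9, Bmp15 and Nlrp5. Read depth is unknown, since the table gives FPKM without counts.

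The 6 libraries separated by stage. Across genes, correlations of log2(FPKM + 1) were 0.978 to 0.988 among the GV libraries, 0.983 to 0.985 among the zygote libraries and 0.786 to 0.819 between the stages. The GV libraries had 11101 to 11226 genes at 1 FPKM or more, and the zygote libraries 9748 to 9932. FPKM totals were 394177 to 403583 in GV oocytes and 350773 to 357999 in zygotes. The top gene in every one of these libraries was the zinc-finger gene Zbed3, at 4558, 4139 and 4053 FPKM in GV oocytes and at 10025, 9952 and 10441 FPKM in zygotes. Each value is relative to the total of its library, so fewer cells, less mRNA per cell and another composition cannot be told apart, and "rose" below means a larger share of the mRNA measured. Whether RNA was selected by its poly(A) tail is not given. A change in how well a transcript was captured therefore cannot be told apart from a change in its amount.

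More transcripts fell than rose. Changes were tested with limma on log2(FPKM + 1) and called where the p, adjusted by Benjamini-Hochberg over all 13776 genes tested, was under 0.05. Without Cxxc1, 5595 members were called lower in zygotes, which was 48.2% of members, and 2958 were called higher, which was 25.5%. Over all genes tested the background was 43.0% lower and 21.9% higher. A fall of at least 2-fold was called for 3592 members (31.0%) and a rise of at least 2-fold for 928 (8.0%). The GV and zygote libraries did not overlap for 8818 members, or 76.0%. The median log2 change over members was -0.37. The balance depended on the scaling: calls were 34.6% higher as deposited, 48.6% higher under median-of-ratios scaling (4442 lower, 4198 higher) and 55.4% higher under quantile normalization (3834 lower, 4765 higher), while the median of all tested genes moved from -0.27 to -0.05 and 0.11.

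Transcripts were then sorted by fate among the 7547 members with a mean of at least 5 FPKM in deletion GV oocytes. A transcript was called lost when its fall was called and at least 2-fold, kept when the 95% confidence interval of its log2 change lay within -1 and 1, and relatively gained when its rise was called and at least 2-fold. By these limits 2841 transcripts (37.6%) were lost, 3069 (40.7%) were kept, 646 (8.56%) were relatively gained and 991 (13.1%) were in no class. A further 282 members with less than 5 FPKM in GV oocytes also met the limit for a relative gain, which makes 928 in all. The lost transcripts made up 41.2%, 41.4% and 41.0% of the FPKM in the GV libraries and 10.5%, 11.2% and 9.19% in the zygote libraries. The 928 relatively gained transcripts went the other way, from 8.72%, 8.79% and 8.79% to 27.0%, 26.7% and 27.9%. Kept transcripts held 37.6% to 37.7% of the FPKM in GV oocytes and 46.8% to 47.3% in zygotes. The share called at least 2-fold lower was 21.3% of members at 1 to 5 FPKM in GV oocytes, 36.0% at 5 to 20, 38.8% at 50 to 100 and 49.0% at 200 FPKM or more, and in wild type it went from 25.8% to 62.7% over the same bins. On log2(FPKM + 1) a transcript at 1 FPKM can fall by at most 1, so the share is held down by the scale at low levels, most of all in the lowest bin.

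**Figure D1:**
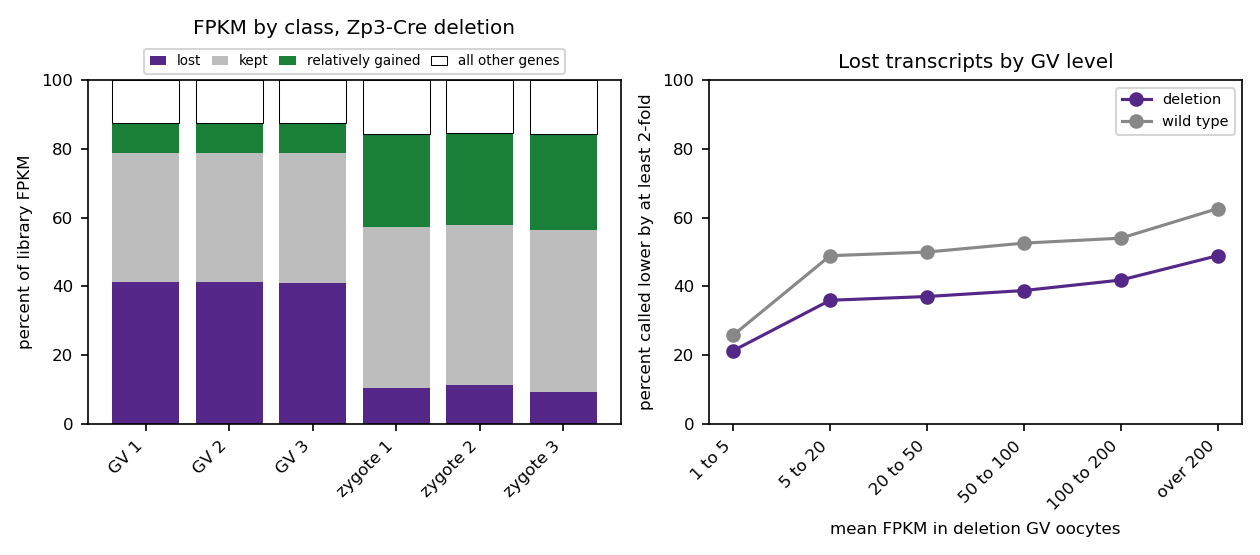
Left, the percent of each deletion library's FPKM held by lost, kept and relatively gained transcripts in 3 GV and 3 zygote libraries (stacked bars). Right, the percent of members called at least 2-fold lower in zygotes (y axis) by mean FPKM in deletion GV oocytes (x axis, 6 bins) in both genotypes; the wild-type line lies above the deletion line in every bin, 62.7% against 49.0% in the highest.

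The largest falls took transcripts from 70.7 FPKM or more to 33.5 FPKM or less. Fcf1, a factor for processing of the small ribosomal subunit RNA, was at 202, 232 and 186 FPKM in GV oocytes and at 9.15, 4.03 and 3.19 FPKM in zygotes, a log2 change of -5.11 ± 0.449 (SE, adjusted p = 4.74e-09). Tacc3, which encodes a spindle protein that binds microtubules and clathrin, was at 539.8, 525 and 506 FPKM in GV oocytes and at 33.5, 11.03 and 9.87 FPKM in zygotes (log2 change -4.99 ± 0.425 SE, adjusted p = 3.10e-09). For both genes all 3 zygote libraries lay far under the lowest GV library, and zygote library 1 was the highest of its group. Wild-type zygotes held 11.1, 8.86 and 8.69 FPKM of Tacc3. Tuba4a, an alpha-tubulin, fell from 180.4, 172 and 172 to 9.73, 4.27 and 2.91 FPKM, and Atp6v1e1, a subunit of the vacuolar proton pump, from 122, 161 and 137 to 4.28, 5.41 and 2.34 FPKM. The deubiquitinase gene Otub1 fell by 4.69 on the log2 scale and Cpsf4l, a homologue of a cleavage and polyadenylation factor, by 4.70. Tmem39b, Naa38, Rps4x and Fam162a completed the 10 largest falls, with log2 changes between -4.89 and -4.69.

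Transcripts for proteins of the cytosolic ribosome fell in nearly every gene, against falls in 48.2% of all members. Of 48 large-subunit genes 46 fell and 0 rose, with 43 in the lost class and a median log2 change of -2.81, and of 32 small-subunit genes 28 fell and 2 rose, with a median of -2.996, against -0.37 over all members. Under median-of-ratios scaling these counts were 44 and 2, and 28 and 3. In wild type the medians were -3.90 and -3.67. The difference from the wild-type change was called upward for 18 and 10 genes (37.5% and 31.25%, against 25.9% of all members). It was called downward for 0 in either list. Under median-of-ratios scaling 10 were upward and 2 downward, and 7 and 1. The large-subunit genes summed to 8215 to 9837 FPKM in GV oocytes and 2691 to 2727 FPKM in zygotes, against 652 to 726 FPKM in wild-type zygotes. Rpl7a was at 393, 433 and 409.5 FPKM in GV oocytes and at 28.4, 14.1 and 8.497 FPKM in zygotes (log2 change -4.67 ± 0.402 SE, adjusted p = 3.55e-09). Rps4x, the X-linked small-subunit gene, fell from 174, 206 and 165 to 7.62, 5.16 and 4.52 FPKM, and Rps9 from 145, 148 and 156 to 9.81, 8.698 and 4.68 FPKM. In each of these genes the lowest GV library was more than 10 times the highest zygote library. The genes outside this pattern were Rpl22 and Rpl41, with log2 changes of 0.10 and 0.26 that did not pass the test, Rps28 and Rps15a, at 0.05 and 0.20, which did not pass it either, and Rps2 and Rps27l, which rose by 0.90 and 1.24. Reads of ribosomal protein genes can be shared with near-identical pseudogenes, so single values are uncertain.

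Ribosomal protein genes are the textbook case of transcripts that begin with a C and a run of pyrimidines, a feature through which their translation is regulated together. The stretches of 30 bases around the annotated start of some of them are shown because this group carried the most uniform loss. They come from RefSeq promoters of the build GRCm38.p6, from 10 bases before the start to 20 bases from it on, 5′ to 3′ on the gene's strand, with capitals for the C nearest to the annotated start, within 5 bases of it, that is followed by at least 4 bases that are each C or T, and for the pyrimidines that follow this C. Pyrimidines before that C are in lower case.
Rpl7a (chr2:26910797-26910826, plus strand): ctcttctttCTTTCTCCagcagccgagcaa
Rps9 (chr7:3704031-3704060, plus strand): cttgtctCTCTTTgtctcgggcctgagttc
Rpl28 (chr7:4792955-4792984, plus strand): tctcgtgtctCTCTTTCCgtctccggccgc
Rps6 (chr4:86857348-86857377, minus strand): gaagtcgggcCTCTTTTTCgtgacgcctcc
Rps18 (chr17:33955646-33955675, minus strand): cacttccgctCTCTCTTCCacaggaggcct
Rpl38 (chr11:114668570-114668599, plus strand): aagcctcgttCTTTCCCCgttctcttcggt
Such a run was found on the sense strand in 29 of the 60 ribosomal protein genes with a promoter in that table, in 23.7% of the 9287 members with one and in 18.3% of all 32851 promoters of the table. Only 75.0% of the ribosomal list had a promoter there, under the 80% that a comparison of the list would need, so that comparison is void. Among the classes the share was 24.4% of lost and 24.4% of kept transcripts with a promoter. The genes shown are a part of those with such a run, and a link between the run and the loss was not tested. Rps15a, Rps2 and Rps27l, which did not fall, also had such a run, of 8, 6 and 5 bases counted with the C. The letters are a description of these windows and show no binding or start site.

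Mitochondrial genes encoded in the nucleus fell in the same way, more often than the 48.2% of all members. Among oxidative phosphorylation genes 57 of 74 members fell and 5 rose, and the median log2 changes were -1.66 without Cxxc1 and -3.16 in wild type. Among mitochondrial ribosomal proteins 63 of 76 members fell and 5 rose, with medians of -1.88 without Cxxc1 and -2.45 in wild type. Ndufb4, a subunit of complex I, was at 108, 149.8 and 163 FPKM in GV oocytes and at 8.398, 9.11 and 1.85 FPKM in zygotes, a log2 change of -4.43 ± 0.422 (SE, adjusted p = 1.55e-08). Atp5o, a subunit of the ATP synthase stalk, fell from 133, 148 and 123 to 7.88, 5.92 and 3.7005 FPKM, and Mrps22, in the small mitochondrial ribosomal subunit, from 90.8, 99.5 and 74.5 to 3.17, 3.64 and 2.08 FPKM. The zygote values of Ndufb4 ranged widely around their mean but none came near a GV value. The ATP synthase catalytic subunit Atp5b stood apart with a log2 rise of 0.64 ± 0.0846 (SE, adjusted p = 1.36e-06), and Cox8a rose by 0.66. Proteasome subunits followed the same course: 31 of 42 members fell and 4 rose, with medians of -1.67 without Cxxc1 and -2.55 in wild type. The ATPase subunit Psmc2 fell from 107, 112 and 111 to 5.43, 7.06 and 6.08 FPKM and the proteolytic-core subunit Psmb7 from 238, 245 and 256 to 17.9, 22.5 and 17.1 FPKM. The medians of these lists stayed below -1 under both other scalings.

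**Figure D2:**
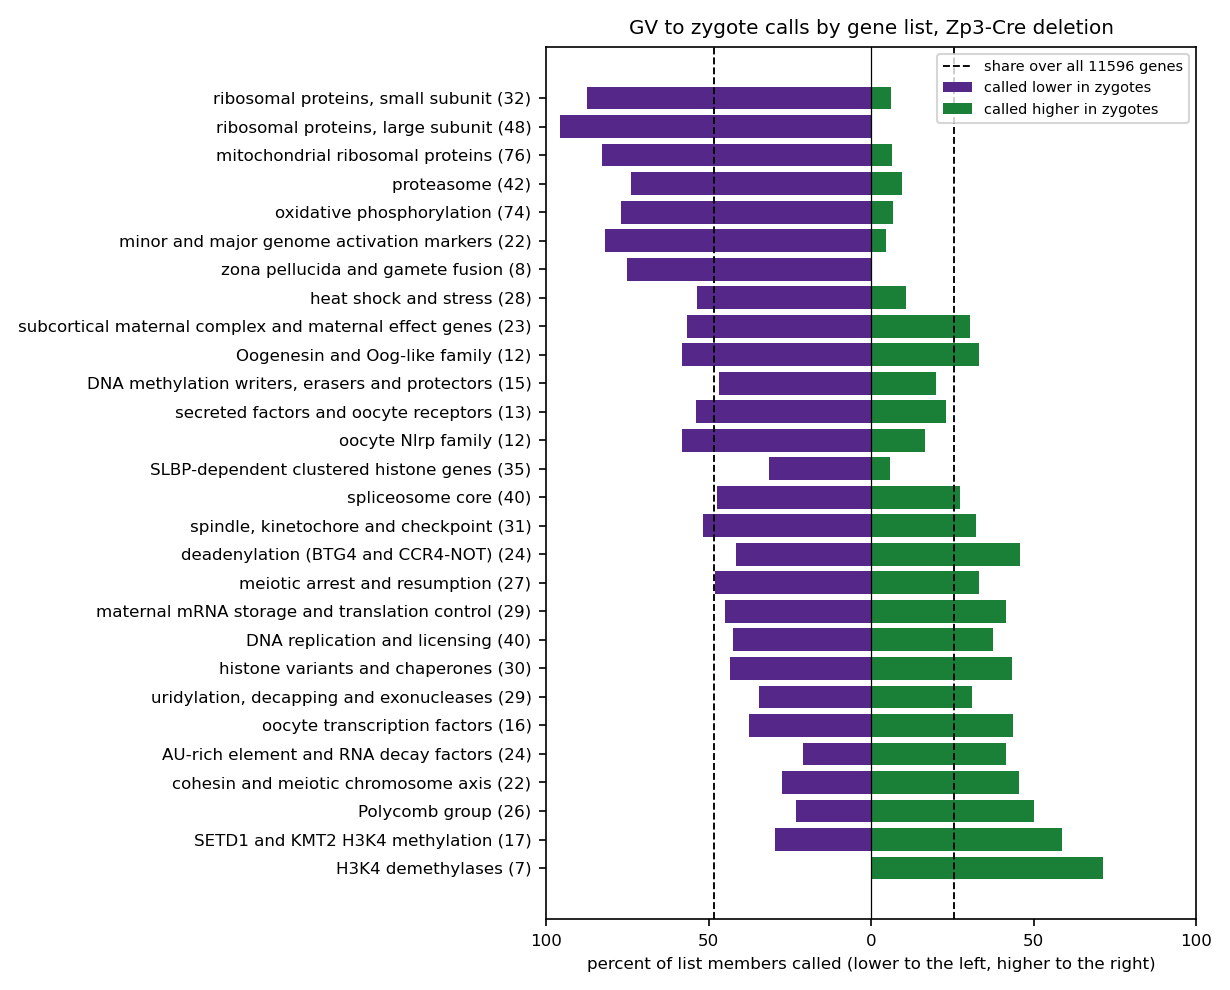
Percent of the members of each gene list called lower (left) or higher (right) in zygotes than in GV oocytes of the Zp3-Cre deletion, list sizes in parentheses, dashed lines at the shares over all 11596 genes (48.2% lower, 25.5% higher). The lists of large and small ribosomal subunits, mitochondrial ribosomal proteins and genome activation markers reach farthest to the left, and Polycomb, SETD1 and KMT2 and H3K4 demethylase lists lie to the right.

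Genes of the cell division machinery changed in shares near those over all members, 48.2% lower and 25.5% higher. Among spindle, kinetochore and checkpoint genes 16 of 31 members fell and 10 rose (13 and 13 under median-of-ratios scaling), and among genes of meiotic arrest and resumption 13 of 27 members fell and 9 rose (12 and 14). Cdk1, the kinase that drives entry into M phase, was at 38.8, 36.8 and 37.3 FPKM in GV oocytes and at 2.34, 0.896 and 0.882 FPKM in zygotes (log2 change -4.08 ± 0.229 SE, adjusted p = 7.43e-12). Fbxo5, which encodes the anaphase-promoting complex inhibitor EMI1, fell from 76.6, 68.6 and 72.2 to 4.74, 4.12 and 3.58 FPKM, and Fzr1, an activator of that complex, from 126, 111 and 131 to 13.9, 9.02 and 8.796 FPKM. The checkpoint gene Bub3 and the chromosomal passenger gene Birc5 fell, with log2 changes of -3.16 and -3.002. Ccnb1, which encodes the cyclin partner of Cdk1, was at 259, 253 and 264 FPKM in GV oocytes and at 357, 360.4 and 358 FPKM in zygotes, a called rise of 0.47 on the log2 scale. Wee2, the oocyte kinase that holds CDK1 inactive, rose by 0.88, and Plk1, a kinase of M phase, fell by 1.12. For both lists the median changed sign with the scaling: it was -0.25 for the spindle list as deposited and 0.14 under median-of-ratios scaling, and -0.10 and 0.30 for the meiotic list.

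DNA replication genes were split as well, in that 17 of 40 members fell and 15 rose, or 14 and 20 under median-of-ratios scaling. The largest falls in it were those of Gins4, a subunit of the replicative helicase complex, from 100.1, 106 and 90.3 to 9.96, 5.88 and 4.64 FPKM, and of Rfc2, in the clamp loader, from 34.1, 30.9 and 36.8 to 1.47, 1.56 and 2.14 FPKM. Cohesin and meiotic axis genes went more often the other way, with 6 of 22 members fallen and 10 risen, against 48.2% and 25.5% of all members. Wapal, the cohesin release factor, rose from 22.02, 23.95 and 21.4 to 149, 134 and 151 FPKM (log2 change 2.63 ± 0.0785 SE, adjusted p = 2.76e-15), and the cohesin acetyltransferase gene Esco1 from 17.9, 18.7 and 17.8 to 83.2, 84.4 and 88.5 FPKM. The zygote and GV libraries did not overlap for any of these 4 genes. Spliceosome genes were near the background, with 19 of 40 fallen and 11 risen (14 and 16 under median-of-ratios scaling).

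Genes of the egg surface were mostly lower in zygotes. Of the 8 zona pellucida and gamete fusion members 6 fell and 0 rose, with medians of -1.56 without Cxxc1 and -3.84 in wild type. Zp3, the zona protein whose promoter drives the Cre used here, was at 1437, 1295 and 1274 FPKM in GV oocytes and at 230.1, 236 and 153 FPKM in zygotes (log2 change -2.71 ± 0.232 SE, adjusted p = 3.22e-09). Zp2, the zona protein cleaved after fertilization, fell from 1159, 1210.4 and 1064 to 396, 469 and 326 FPKM, and Izumo1r, the egg receptor for the sperm protein IZUMO1, from 208, 188 and 190.4 to 38.2, 25.1 and 24.2 FPKM. Zygotes without Cxxc1 still held 153 FPKM or more of Zp3 in every library. Among genes of the subcortical maternal complex and other maternal effect genes 13 of 23 members fell and 7 rose, shares near the 48.2% and 25.5% of all members, and under median-of-ratios scaling 10 fell and 10 rose. Padi6, a component of the cytoplasmic lattices, fell from 1788, 1852 and 1977 to 375, 385 and 245 FPKM and Tle6, in the subcortical complex, from 797, 840.1 and 755 to 147, 155 and 120.2 FPKM. Zar1l fell by 3.48 on the log2 scale, while its relative Zar1 belonged to the kept class. Among oocyte Nlrp genes, whose close copies make single values uncertain, 7 of 12 fell and 2 rose as deposited, against 4 and 5 under median-of-ratios scaling. Nlrp14 fell from 1193, 1292 and 1047 to 327, 307 and 266 FPKM and Nlrp5, also called Mater, from 642, 661 and 594 to 322, 335 and 292 FPKM. The 12 members of the Oogenesin family had 7 falls and 4 rises, with a median of -0.47 as deposited and -0.10 under median-of-ratios scaling.

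The oocyte's regulators were mixed. Among 16 transcription factors 6 fell and 7 rose, or 37.5% and 43.75%, against 48.2% and 25.5% of all members. Lhx8, a homeobox factor of early oocytes, fell from 73.3, 79.7 and 81.5 to 14.98, 19.04 and 13.1 FPKM, and Nobox, which controls oocyte genes, from 308, 278 and 286 to 122, 141 and 112 FPKM. Foxo3, known as a brake on the activation of primordial follicles, rose from 116, 106 and 107 to 285, 302 and 303 FPKM (log2 change 1.43 ± 0.0959 SE, adjusted p = 9.63e-11). Of 13 secreted factors and receptors 7 fell and 3 rose, near the shares over all members, and 2 fell and 4 rose under median-of-ratios scaling. Their median of -0.39 as deposited became 0.10 under quantile normalization. Bmp15, a growth factor for cumulus cells, fell from 669, 689 and 599 to 245, 376 and 250.1 FPKM, whereas the oocyte-secreted protein gene Oosp1 rose from 553, 621 and 561 to 1322, 1332 and 1368 FPKM. All 3 zygote libraries of Oosp1 were above all 3 GV libraries.

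Kept transcripts included some of the most abundant of the oocyte. The 6 with the highest GV level were Ldhb, Gdf9, H1foo, Zfp57, Spin1 and Zar1. Ldhb, the lactate dehydrogenase subunit by which the oocyte uses lactate, was at 3114, 3313 and 3357 FPKM in GV oocytes and at 2513, 2378 and 2397 FPKM in zygotes (log2 change -0.42 ± 0.0797 SE, adjusted p = 1.00e-04), a change of -0.01 under median-of-ratios scaling. Gdf9, the growth factor made by oocytes, was at 1955, 1923 and 1753 FPKM in GV oocytes and 1488, 1559 and 1338 FPKM in zygotes, and its change of -0.36 as deposited became 0.05 under median-of-ratios scaling (adjusted p = 0.633). Zar1, which binds and stabilises maternal mRNA, was at 1199, 1154 and 1223 FPKM in GV oocytes and 1283, 1631 and 1324 FPKM in zygotes. In Ldhb and Gdf9 the zygote libraries lay under the GV libraries, and in Zar1 they lay slightly above them. The oocyte linker histone H1foo went from 1574, 1748 and 1571 to 2208, 2369 and 2225 FPKM, and Spin1, a reader of methylated H3, from 1410.3, 1516 and 1494 to 1980.3, 1879.6 and 2034 FPKM, both called rises of less than 2-fold. Zfp57, which protects imprinted methylation, went from 1557, 1472 and 1449 to 899, 1110.2 and 931 FPKM, a change of -0.61 as deposited and of -0.20 under median-of-ratios scaling. In wild type the same genes gave other values: Ldhb went from 2599, 2486 and 2575 to 914, 808 and 847 FPKM, Zar1 from 1623, 1484 and 1516 to 729, 779.6 and 644 FPKM and Zfp57 from 1280.0, 1299 and 1230.1 to 330.2, 241 and 316 FPKM. The difference between the genotypes' log2 changes was 1.15 ± 0.113 for Ldhb (SE, adjusted p = 1.67e-07), 1.34 for Zar1 and 1.498 for Zfp57, and -0.67 for Spin1, which rose more in wild type.

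Relatively gained transcripts were led by genes that were scarce in GV oocytes. Gtf2a1, a subunit of the general transcription factor TFIIA, was at 6.83, 6.703 and 6.999 FPKM in GV oocytes and at 183, 147 and 183 FPKM in zygotes, a log2 change of 4.45 ± 0.172 (SE, adjusted p = 5.09e-14). The forkhead gene Foxn2 was at 5.08, 3.99 and 4.85 FPKM in GV oocytes and 95.6, 91.3 and 95.5 FPKM in zygotes. Khsrp, which encodes a protein that binds AU-rich elements and promotes mRNA decay, was at 15.4, 13.4 and 18.9 FPKM in GV oocytes and at 281, 261 and 289 FPKM in zygotes (log2 change 4.05 ± 0.155 SE, adjusted p = 4.51e-14). The libraries within a stage lay close together for all 3 genes, with more than a 10-fold gap between the stages. Chsy1, a chondroitin sulfate synthase, rose from 3.43, 5.44 and 4.45 to 75.4, 88.8 and 75.8 FPKM, and the histone demethylase gene Kdm7a from 1.46, 1.32 and 2.598 to 35.04, 34.5 and 34.7 FPKM. Cpeb4, which binds the cytoplasmic polyadenylation element and acts after meiosis I in frog oocytes, rose from 2.39, 2.49 and 1.71 to 29.5, 23.7 and 30.01 FPKM. Myef2, Kdelr2, Rnf111 and Nhsl1 completed the 10 largest rises, with log2 changes between 3.18 and 3.36. In wild type these 10 genes also rose, by 2.51 for Khsrp and by 3.22 to 4.83 for the others.

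**Figure D3:**
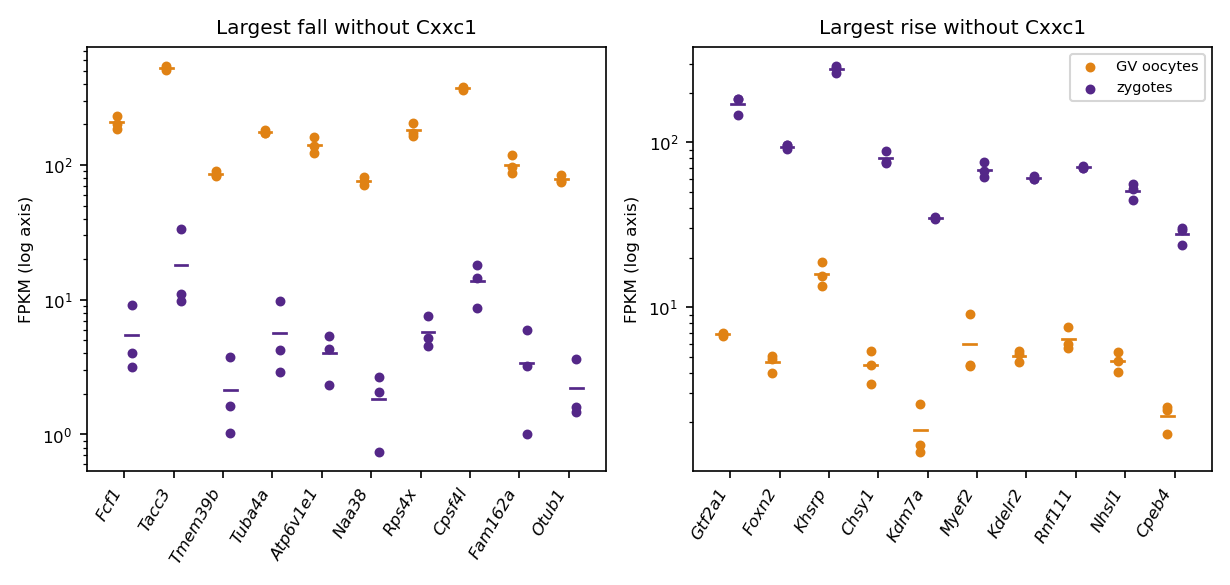
FPKM on a log axis of the 10 largest falls (left) and 10 largest rises (right) in the 3 GV and 3 zygote libraries of the deletion; points are libraries and short lines are means. GV and zygote points do not overlap for any gene, as the naming rule required; Tacc3 goes from 506 FPKM or more to 33.5 FPKM or less and Khsrp from 18.9 FPKM or less to 261 FPKM or more.

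The age of the females moved with part of the gained class. In wild-type GV oocytes alone, 306 members were called higher at 3 months than at 3 weeks, which was 2.64% of members against a background of 2.25% of all genes tested, and 203 were called lower (1.75% and a background of 1.70%). Among the 928 relatively gained transcripts 158 were higher at 3 months (17.0%) and 7 were lower, with a median log2 difference of 0.23. Among the lost transcripts 17 were higher and 29 lower, and among the kept 60 and 56. Foxn2 was at 4.04, 4.595 and 4.32 FPKM in 3-week and at 8.81, 6.23 and 6.698 FPKM in 3-month wild-type oocytes, and Chsy1 at 5.699, 4.36 and 4.83 and 9.56, 7.75 and 8.74 FPKM. These differences between ages are smaller than the rises to the zygote, which reached 95.6, 91.3 and 95.5 FPKM of Foxn2, and the part of age in the gained class was not tested.

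Genes of the mRNA decay machinery were split, while over all members 48.2% fell and 25.5% rose. Among deadenylation genes 10 of 24 members fell and 11 rose, a median of -0.14 that was 0.26 under median-of-ratios scaling. Btg4, the licensing factor for maternal mRNA decay, was at 279, 302 and 265 FPKM in GV oocytes and at 1439, 1518 and 1446 FPKM in zygotes (log2 change 2.38 ± 0.0875 SE, adjusted p = 3.01e-14). In wild type Btg4 went from 395, 381 and 400.3 to 2081, 2402 and 2041 FPKM, and the difference between the log2 changes was -0.09 with a 95% interval of -0.35 to 0.17 (adjusted p = 0.678). The rise of Btg4 was thus called in both genotypes, and its level was lower without Cxxc1 at both stages, with no overlap of libraries. Cnot7, a catalytic CCR4-NOT deadenylase, rose from 64.8, 77.9 and 74.6 to 261, 277 and 292 FPKM, and Pan3, which directs another deadenylase, from 6.33, 7.56 and 7.92 to 64.2, 58.3 and 59.2 FPKM. Cnot6l, the deadenylase known for its role in maternal mRNA clearance, rose from 34.1, 35.01 and 36.2 to 66.6, 68.9 and 70.3 FPKM, against 38.3, 39.9 and 39.2 FPKM in GV oocytes and 38.4, 46.4 and 46.1 FPKM in zygotes in wild type, with a called difference of 0.80 ± 0.13996 (SE, adjusted p = 1.94e-04). Changes of at least 2-fold went both ways, with 4 called falls and 5 called rises in this list. The largest fall was that of Cnot10, from 26.1, 27.3 and 20.9 to 1.23, 1.401 and 0.927 FPKM.

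Decay factors downstream of deadenylation were divided, beside shares over all members of 48.2% lower and 25.5% higher. Of 29 uridylation, decapping and exonuclease genes 10 fell and 9 rose, or 9 and 13 under median-of-ratios scaling. The exosome subunit gene Exosc1 fell from 21.5, 22.5 and 19.9 to 1.21, 1.297 and 1.32 FPKM and Lsm3, in the ring that binds deadenylated ends, from 154, 181 and 186 to 19.4, 19.8 and 10.9 FPKM. Dcp1a, a decapping cofactor whose maternal message is recruited during maturation, rose from 97.4, 102 and 95.04 to 423, 372 and 422 FPKM. Among AU-rich element and decay factors 5 of 24 members fell and 10 rose, where Upf1, the helicase of nonsense-mediated decay, rose from 37.1, 31.1 and 31.9 to 229.6, 213 and 233 FPKM and Upf3a fell from 31.9, 33.1 and 25.1 to 6.61, 8.32 and 8.21 FPKM. For mRNA storage and translation control 13 of 29 members fell and 12 rose. Cpeb1, which holds dormant mRNA and is degraded as protein during maturation, fell from 242, 249 and 238 to 39.3, 32.1 and 30.6 FPKM (log2 change -2.81 ± 0.139 SE, adjusted p = 1.25e-12), and Ybx2, the germ cell mRNA packaging protein, from 434, 371 and 411 to 211, 188 and 166 FPKM. The fall of Cpeb1 and the rise of Cpeb4 were called in both genotypes, with log2 changes of -3.57 and 3.22 in wild type.

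SETD1 and KMT2, H3K4 demethylase and Polycomb genes were called higher more often than lower. The relatively gained class held 5 of 17, 1 of 7 and 6 of 26 members of these lists. Among SETD1 and KMT2 complex genes, of which Cxxc1 is one, 5 of 17 members fell and 10 rose, with medians of 0.38 without Cxxc1 and 0.79 in wild type. Kmt2d, an H3K4 methyltransferase of enhancers, rose from 6.71, 5.85 and 7.65 to 56.8, 49.9 and 55.5 FPKM (log2 change 2.84 ± 0.145 SE, adjusted p = 1.96e-12), and Setd1a, a catalytic partner of CFP1, from 41.98, 33.9 and 41.4 to 65.2, 56.4 and 62.3 FPKM. Setd1b, the other partner, fell from 18.03, 14.2 and 21.7 to 9.799, 10.4 and 10.3 FPKM, and Men1, in the KMT2A and KMT2B complexes, from 58.8, 51.1 and 52.7 to 10.7, 8.91 and 5.92 FPKM. For neither SETD1 gene did the difference from the wild-type change pass the test: the differences were -0.31 (95% interval -0.59 to -0.04) and 0.01 (-0.39 to 0.40). H3K4 demethylase genes had 5 rises and 0 falls among 7 members, led by Rcor1, a subunit of the KDM1A complex, at 1.01 on the log2 scale. Of 26 Polycomb genes 6 fell and 13 rose. Bmi1, in repressive complex PRC1, rose from 49.9, 55.02 and 57.6 to 248, 234 and 241 FPKM, and Suz12, in PRC2, from 40.6, 41.5 and 43.2 to 167, 158 and 168 FPKM. The Polycomb median of 0.34 stayed above 0 under both other scalings, at 0.74 and 0.68.

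Among genes of DNA methylation 7 of 15 members fell and 3 rose, near the shares over all members, and under median-of-ratios scaling 6 fell and 6 rose. Tet3, the dioxygenase that oxidises methylcytosine in the zygote, rose from 32.1, 29.8 and 31.5 to 283, 276 and 269 FPKM (log2 change 3.11 ± 0.133 SE, adjusted p = 1.81e-13). Dnmt1, the maintenance methyltransferase, fell from 663, 595 and 512 to 97.2, 68.5 and 57.4 FPKM (log2 change -2.998 ± 0.258 SE, adjusted p = 3.51e-09), and the de novo enzyme gene Dnmt3a from 40.7, 35.5 and 38.02 to 9.76, 7.61 and 7.19 FPKM. In wild type Tet3 went from 59.6, 51.9 and 63.7 to 574, 555 and 623 FPKM and Dnmt1 from 1224, 1255 and 1258 to 56.6, 41.4 and 56.9 FPKM. The change of Dnmt1 was smaller without Cxxc1 (difference 1.58 ± 0.365 SE, adjusted p = 0.00239), and wild-type GV libraries started higher than deletion GV libraries. For Tet3 the difference was -0.20 with a 95% interval of -0.59 to 0.20 (adjusted p = 0.506). Histone variant and chaperone genes had 13 falls and 13 rises among 30 members (10 and 16 under median-of-ratios scaling): Chaf1a, in the chromatin assembly complex, fell from 248, 236 and 242 to 34.3, 40.2 and 29.9 FPKM and H3f3b, an H3.3 gene, rose from 156, 167 and 179 to 355, 337 and 382 FPKM. Clustered histone genes, whose copies are nearly identical, had 11 falls and 2 rises among 35 members, fewer falls than the 48.2% of all members, and this balance moved to 6 and 5 under median-of-ratios scaling and to 5 and 7 under quantile normalization.

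Of 28 heat shock and stress genes 15 fell and 3 rose, with medians of -0.66 without Cxxc1 and -0.77 in wild type. The falls were near the 48.2% of all members, and under median-of-ratios scaling 12 fell and 8 rose. Hspa8, the constitutive HSC70 chaperone, fell from 369, 392 and 399.8 to 54.02, 60.4 and 41.2 FPKM, and Ddit3, a transcription factor of the unfolded protein response, from 82.6, 94.2 and 63.9 to 7.095, 2.64 and 3.503 FPKM. Hspa1b, whose reads can be shared with Hspa1a, fell from 118, 83.7 and 94.6 to 21.2, 15.7 and 22.3 FPKM, and its wild-type levels were 15.9, 16.7 and 19.9 FPKM in GV oocytes and 2.798, 1.56 and 1.63 FPKM in zygotes. Both Hspa1b levels were thus higher without Cxxc1 than in wild type, while the changes differed by 0.38 (adjusted p = 0.601). Of 22 members on the list of genome activation markers 18 fell and 1 rose, or 16 and 2 under median-of-ratios scaling. As deposited the falls were 81.8% of this list, against 48.2% of all members. The falls included the nucleolar gene Nop56, from 46.6, 52.3 and 47.5 to 2.79, 1.92 and 1.25 FPKM, and the translation initiation gene Eif1ax, from 320.5, 338 and 314 to 25.4, 25.97 and 20.7 FPKM, both also present in the oocyte. Klf4 was the gene that rose, by 0.50 on the log2 scale.

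Most markers of other cell types were low, and some moved with the stage. Of 21 granulosa and cumulus markers 10 were members, 6 fell and 0 rose. Amh, Inha, Inhba, Inhbb, Gja1 and Hsd17b1 reached 1 FPKM in GV libraries alone. For these genes the member rule favoured a fall, so the falls in this list cannot be compared with those over all members. The summed FPKM of the 21, members or not, was 65.8 to 79.2 in GV oocytes and 33.1 to 38.3 in zygotes. Inha, which encodes the inhibin alpha subunit, was at 19.1, 23.1 and 17.1 FPKM in GV oocytes and at 0.33998, 0.4299 and 0 FPKM in zygotes, and Amh at 4.27, 5.78 and 4.76 FPKM in GV oocytes and 0.4397, 0.518 and 0.961 FPKM in zygotes. Inhbb, Foxl2 and Hsd17b1 were listed at 0 in all 3 zygote libraries. Cyp19a1, the aromatase gene, made up much of the zygote sum and did not pass the test, at 15.8, 18.96 and 13.3 FPKM in GV oocytes and 18.1, 18.6 and 21.8 FPKM in zygotes. The nuclear receptor gene Nr5a2 was at 16.8, 14.5 and 16.7 FPKM in GV oocytes and 9.44, 8.64 and 10.9 FPKM in zygotes, and Kitl, the ligand of KIT, at 1.71, 1.56 and 1.44 and 2.21, 1.58 and 2.05 FPKM, with no call. In wild type 6 of the 10 fell and 2 rose, with Inha at 22.6, 14.98 and 17.8 FPKM in GV oocytes and 0.146, 0.137 and 0.132 FPKM in zygotes. The part of these cells in the falls above was not tested. Of 12 oviduct markers 4 were members, 2 fell and 1 rose. Ovgp1, the defining gene, stayed at or under 0.317 FPKM in all 6 libraries. The summed FPKM of the 12 was 54.6 to 61.3 in GV oocytes and 117 to 123 in zygotes, most of it Cdh1. Cdh1 was at 46.1, 45.4 and 46.8 FPKM in GV oocytes and 119, 120 and 114 FPKM in zygotes. Krt8 was at 5.66, 4.61 and 10.5 FPKM and at 1.74, 0.811 and 0.439 FPKM in that order. Of 16 sperm markers 10 were members, 4 rose (40.0%, against 25.5% of all members) and 0 fell. Prm3, Tnp1 and Pgk2 lay near 1 FPKM and reached it in zygote libraries alone. The member rule thus favoured a rise for them, and the 2 shares cannot be compared. Tnp1 was at 0.532, 0 and 0 FPKM in GV oocytes and 1.88, 0.975 and 1.04 FPKM in zygotes. The summed FPKM of the 16 was 118 to 128 in GV oocytes and 139 to 166 in zygotes, most of it Odf2. Odf2 was at 96.1, 89.8 and 84.6 FPKM in GV oocytes and 135, 108 and 128 FPKM in zygotes. Of 14 blood and immune markers 1 was a member, Laptm5, which fell by 0.997 on the log2 scale, a call lost under quantile normalization.

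The change without Cxxc1 was then set against the change in wild type. On the same members, wild type had 6594 genes called lower (56.9%, background 50.7% of all genes tested) and 2608 called higher (22.5%, background 19.4%), with a median log2 change of -0.67 against -0.37 without Cxxc1. A fall of at least 2-fold was called for 4746 members in wild type and 3592 without Cxxc1, and a fall of at least 3 on the log2 scale for 991 and 418. Of the deletion's 5595 falls 5140 (91.9%) were also falls in wild type, where they were 77.9% of the calls, and of its 2958 rises 2169 (73.3%) were also rises there, 83.2% of the calls. Across members the 2 changes had a Pearson r of 0.866 and a Spearman rho of 0.861, a description over genes, which are not independent replicates. The 2 comparisons share no library. In the opposite directions, 280 genes rose without Cxxc1 and fell in wild type, and 19 fell without Cxxc1 and rose in wild type. The difference was called for all of them, which their choice by opposite calls made nearly certain.

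**Figure D4:**
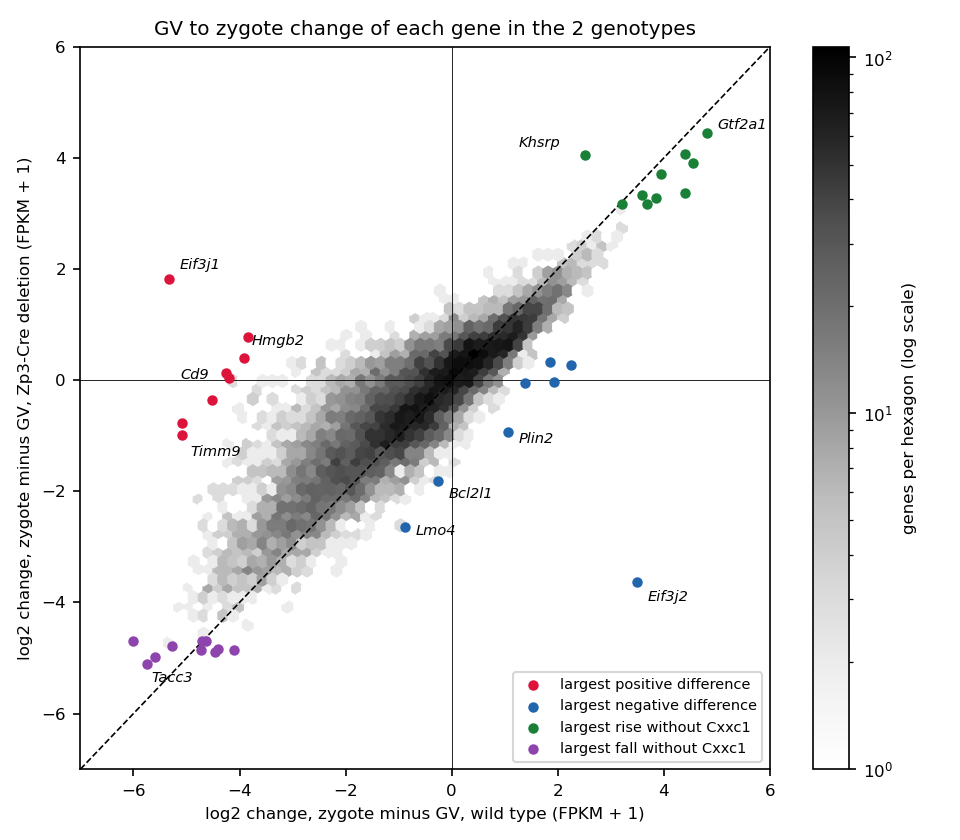
Log2 change from GV oocyte to zygote of 11596 genes in wild type (x axis) and in the Zp3-Cre deletion (y axis), on log2(FPKM + 1), with density in grey hexagons and the named genes in colour; the dashed line marks equal change. The cloud bends above the line where wild type falls most, and Eif3j1 and Eif3j2 sit at opposite corners.

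The difference between the 2 changes was tested directly. It was called higher without Cxxc1 for 3006 members (25.9%, background 22.4% of all genes tested) and lower for 947 (8.17%, background 7.01%), with a median of 0.18. This balance turned under median-of-ratios scaling, with 1833 higher and 2841 lower, and was nearly even under quantile normalization, with 1768 higher and 1819 lower. The large differences did not turn: of 1640 genes with a called difference of at least 1 upward, 1514 stayed called under median-of-ratios scaling and 1419 with quantiles matched, and of 118 downward, 117 and 109 did. Of the 338 genes with an upward difference of at least 2, 335 stayed called under each of these scalings, and all 7 downward did. Among the 2841 lost transcripts 2693 (94.8%) were also lost in wild type, 986 fell less than in wild type and 132 fell more, with medians of -1.97 without Cxxc1 and -2.52 in wild type. Among relatively gained transcripts of at least 5 FPKM 537 of 646 (83.1%) were gained in wild type as well.

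As deposited, part of the kept transcripts were lost in wild type. Of the 3069 kept transcripts, 728 (23.7%) were lost in wild type, and the difference was called for 695 of these. The 728 were chosen by these 2 changes. The calls and the gap between the zygote medians below therefore follow largely from that choice. Their median FPKM was 24.7 in wild-type and 25.3 in deletion GV oocytes, and 6.61 in wild-type and 20.6 in deletion zygotes. At the 2-cell stage it was 11.2 in wild type and 19.8 after deletion, or 20.5 in deletion libraries 1 and 2, since deletion 2-cell library 3 stands apart from its group. Of the 728, 97 were below 0.5 times their zygote level in deletion 2-cell embryos, and 99 without library 3. Under median-of-ratios scaling 556 of the 728, and with quantile normalization 552, were still called with a higher change without Cxxc1, while both class limits held for 244 and 231.

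Hmgb2, a chromatin protein of the HMG box family, was among the largest differences. It was at 219.7, 226 and 224 FPKM in wild-type GV oocytes and at 12.8, 14.1 and 14.4 FPKM in wild-type zygotes, against 232, 244 and 249 FPKM and 316, 339 and 304 FPKM without Cxxc1. The GV libraries of the genotypes lay near each other, and the zygote libraries lay more than 20-fold apart, with a difference between the log2 changes of 4.33 ± 0.209 (SE, adjusted p = 1.22e-11). Cd9, the egg tetraspanin needed for fusion with sperm, was at 60.2, 55.9 and 61.5 FPKM in GV oocytes and 1.86, 2.63 and 2.02 FPKM in zygotes in wild type but at 35.5, 37.98 and 33.99 FPKM in GV oocytes and 33.5, 51.95 and 35.3 FPKM in zygotes without Cxxc1 (difference 4.39 ± 0.232 SE, adjusted p = 3.39e-11). Paip2, a repressor of the poly(A)-binding protein, was at 170.3, 174 and 176 FPKM in GV oocytes and 3.77, 3.97 and 4.64 FPKM in zygotes in wild type but at 152, 172 and 156 FPKM in GV oocytes and 90.2, 118 and 76.1 FPKM in zygotes without Cxxc1 (difference 4.32 ± 0.156 SE, adjusted p = 2.22e-13). In each of these genes all zygote libraries without Cxxc1 were above all wild-type zygote libraries. The ubiquitin-conjugating enzyme gene Ube2t, the histone gene Hist1h2bc and Timm9, a chaperone of the mitochondrial intermembrane space, had differences of 4.24, 4.17 and 4.11. At the 2-cell stage Ube2t was at 49.9, 43.995 and 42.6 FPKM after deletion and at 18.99 and 18.3 FPKM in wild type, and Zfp57 at 931, 839.7 and 472 FPKM and 56.4 and 58.9 FPKM in the same order.

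Upward differences made up more of some lists than of all members, where 25.9% were called upward and 8.17% downward. Of 74 oxidative phosphorylation genes 41 had a called difference upward and 3 downward (35 and 5 under median-of-ratios scaling). Of 8 zona and fusion genes 5 were called upward and 1 downward, of 23 subcortical complex and maternal effect genes 12 and 1, and of 13 secreted factors and receptors 10 and 0; under median-of-ratios scaling these were 5 and 1, 11 and 6, and 6 and 2. Other lists of the same kind lay nearer to all members or turned with the scaling. Of 12 Nlrp genes 5 were called upward and 0 downward (3 and 4 under median-of-ratios scaling), of 12 Oogenesin genes 4 and 2 (3 and 5), of 16 oocyte transcription factors 4 and 2 (3 and 3) and of 76 mitochondrial ribosomal protein genes 24 and 1 (14 and 5). Zp2 was at 939, 991 and 958 FPKM in GV oocytes and 26.3, 23.5 and 22.5 FPKM in zygotes in wild type, where its log2 change was -5.27, and the difference was 3.73 ± 0.195 (SE, adjusted p = 3.11e-11). Mos, the kinase that arrests the egg in metaphase II, was at 239, 218 and 228 FPKM in wild-type GV oocytes and at 7.11, 8.21 and 6.697 FPKM in wild-type zygotes, against 126, 125 and 126 FPKM in GV oocytes and 70.9, 69.3 and 56.1 FPKM in zygotes without Cxxc1 (difference 3.85 ± 0.387 SE, adjusted p = 2.38e-07). GV oocytes without Cxxc1 thus held less Mos and their zygotes more than wild type. Khdc3, a subcortical complex gene, had a difference of 3.21, and Nlrp14 of 2.31. Khsrp, already named among the largest rises, was at 53.6, 71.3 and 48.7 FPKM in wild-type zygotes, and its rise was larger without Cxxc1 by 1.54 ± 0.219 (SE, adjusted p = 1.84e-05).

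As deposited, called differences in the other direction were fewer, a balance that turned under median-of-ratios scaling. They made up more of some lists than the 8.17% of all members. Of 31 spindle, kinetochore and checkpoint genes 10 were called upward and 9 downward (5 and 15 under median-of-ratios scaling). Of 22 genome activation markers these were 1 and 6 (0 and 8), and of 17 SETD1 and KMT2 genes 1 and 4 (1 and 11). Bcl2l1, which encodes the survival protein BCL-XL, was at 113, 111 and 113 FPKM in wild-type GV oocytes and at 108, 83.6 and 92.1 FPKM in wild-type zygotes, against 127, 115 and 124 FPKM in GV oocytes and 32.1, 33.9 and 35.05 FPKM in zygotes without Cxxc1 (difference -1.57 ± 0.133 SE, adjusted p = 2.49e-08). Its GV levels lay close together and its zygote libraries did not overlap between the genotypes. Lmo4, a LIM-only transcription cofactor, was already higher in GV oocytes without Cxxc1, at 19.3, 20.4 and 27.1 FPKM against 1.897, 2.09 and 2.47 FPKM, and was at 3.49, 1.88 and 2.87 FPKM in their zygotes against 0.697, 1.42 and 0.222 FPKM. Cacng7, Alyref2 and S100a14 rose in wild type, by 1.85, 2.26 and 1.39, and had differences of -1.52, -1.98 and -1.44. Without Cxxc1 these 3 genes had changes of 0.32, 0.28 and -0.05 that did not pass the test as deposited. Under quantile normalization all 3 were called rises, of 0.80, 0.899 and 0.60 (adjusted p = 0.00836, 0.0156 and 0.0102), and Cacng7 was also one under median-of-ratios scaling, at 0.72, and without deletion zygote library 2, at 0.799. For Plin2, a lipid droplet protein gene, GV deletion library 3 was at 84.9 FPKM against 13.96 and 16.1 FPKM in the others, and without it the difference went from -2.004 to -1.20 (adjusted p = 0.0955). The call of Plin2 was also lost without any 1 wild-type GV library, without wild-type zygote library 2, without deletion zygote library 1 or 3, on the 12 libraries alone and without the filter on low values (adjusted p = 0.0501 to 0.114). Tceal8 was at 19.04, 18.9 and 43.4 FPKM in deletion GV oocytes, and without library 3 its difference went from -1.95 to -1.57 (adjusted p = 0.0783), and the call was also lost without wild-type GV library 1, without deletion zygote library 1 and without the filter (adjusted p = 0.0506, 0.0567 and 0.0749). That of Lmo4 was lost with a pseudocount of 0.1, where its difference was -1.39 (adjusted p = 0.135). The cell division genes Birc5 and Bub3 fell more without Cxxc1, with differences of -1.04 and -1.098, as did the co-chaperone gene Dnajb1, with a difference of -1.37.

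**Figure D5:**
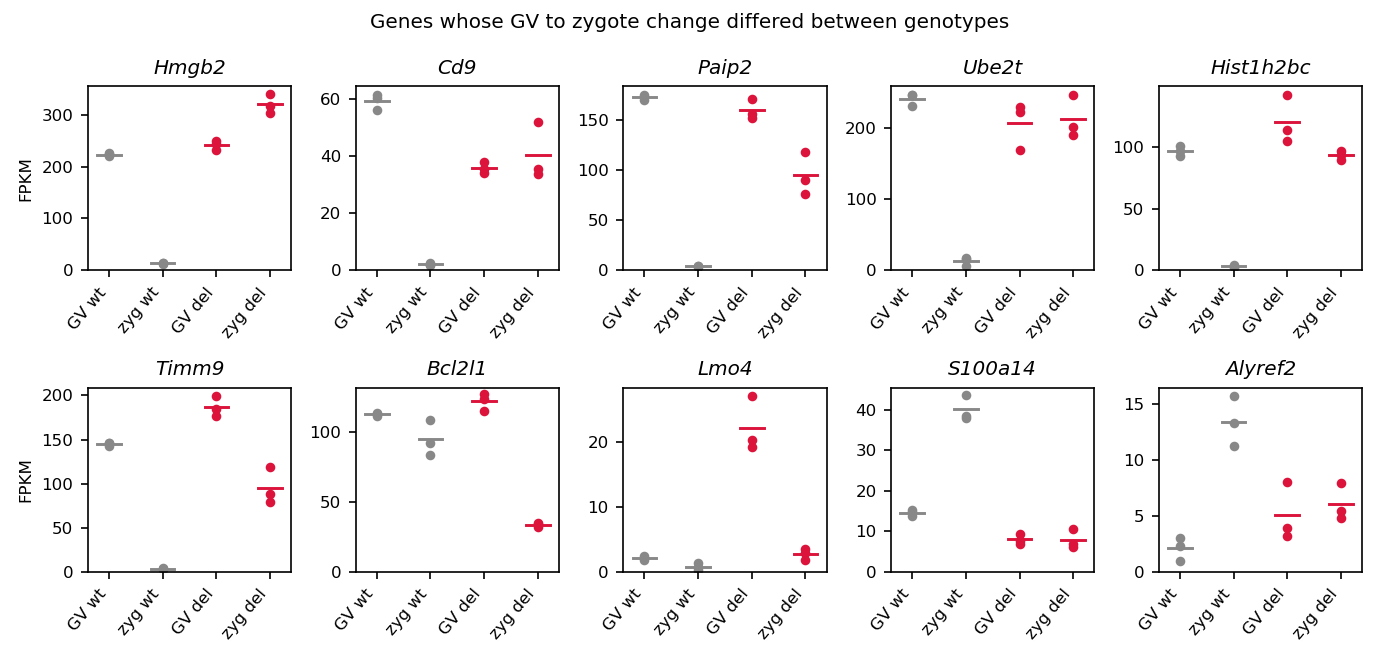
FPKM per library (points) and group mean (lines) of 10 genes with a called difference between the genotypes' changes, in wild-type (grey) and Zp3-Cre deletion (red) GV oocytes and zygotes. In the top row and Timm9 the wild-type zygote points lie near 0 (Hmgb2 at 12.8 to 14.4 FPKM) while the deletion points stay at 33.5 FPKM or more. For Bcl2l1 the deletion zygote points are the lower ones, at 32.1 to 35.05 FPKM against 83.6 to 108 FPKM in wild type.

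The largest differences of all belonged to near-identical copies. Eif3j1 and Eif3j2, which encode the same subunit of translation initiation factor eIF3, had differences of 7.15 and -7.14. Eif3j1 was at 28.2, 0.368 and 0.442 FPKM in deletion GV libraries and at 44.8, 0.1496 and 46.8 FPKM in deletion zygotes, and Eif3j2 at 28.2, 64.1 and 57.9 FPKM in GV oocytes and 0.0435, 47.4 and 0.142 FPKM in zygotes. In 5 of these 6 libraries 1 copy was high and the other low, and in GV library 1 the copies were equal at this precision. Summed over both copies the values were 56.4, 64.4 and 58.3 FPKM in deletion GV oocytes and 44.8, 47.6 and 47.0 FPKM in deletion zygotes, against 49.8, 54.9 and 46.2 FPKM and 17.5, 19.0 and 17.7 FPKM in wild type. As deposited the mean sum was therefore lower in zygotes in both genotypes, going from 59.7 to 46.5 FPKM without Cxxc1 and from 50.3 to 18.1 FPKM in wild type. These sums were not tested, and the values of a single copy are uncertain. Srp54c, a copy of the signal recognition particle gene, ranged from 0.00107 to 31.3 FPKM in deletion GV oocytes, while Srp54a, Srp54b and Srp54c together were at 117, 128 and 176 FPKM there and at 169, 149.6 and 161 FPKM in deletion zygotes, against 166, 181 and 171 FPKM and 98.9, 104 and 95.6 FPKM in wild type.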

How the data were processed

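RNA sequencing of mouse oocytes and embryos was used as 1 table of FPKM per gene, deposited by the authors with a column for each of 23 libraries. Per the labels' protocols, RNA was purified with an RNeasy micro kit and the libraries come from NEBNext Ultra RNA reagents. TopHat2 2.0.12 and Cufflinks 2.2.1 were among the tools per the submitters' processing notes, which list mm10 and mm9 as builds and do not assign them. Not given in the sources used here are the gene annotation, the strand and any poly(A) selection. FPKM is relative to the library total, depth is unknown, a listed 0 may be an estimate that failed, and reads of near-identical copies can be split between them.

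Values were analysed here as log2(FPKM + 1), which understates the change of low genes. Genes at 1 FPKM or more in at least 2 of the 23 libraries, 13776 in number, were fitted with limma 3.58.1 in R 4.3.3 (8 group means, mean-variance trend, 15 residual degrees of freedom) and adjusted by the Benjamini-Hochberg method. Contrasts were 2-sided: zygote minus GV oocyte in each genotype, their difference, and 3 months minus 3 weeks in wild-type GV oocytes. Fitting was tested on simulated data. The members, the 32 gene lists and the tests were chosen with earlier results of these data known, and list counts carry no test of the list. Of the members, 19 carry names turned into dates and are not named.

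Named genes were Cxxc1; the 10 largest called falls and rises among members with a mean of at least 5 FPKM and no overlap of libraries; the 6 kept genes with the highest GV level; the 8 largest called differences each way; and, from each list, at most 4 called members, taken by size of change. Unnamed gene models were passed over. Other list members were named to show what a list holds, after their values were seen.

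Alternatives were a pseudocount of 0.1, no filter, median-of-ratios scaling, quantile normalization, fits on the 12 or 6 libraries compared, a fit without the 2-cell library that stands apart, a replicate block and each library left out. Replicate numbers did not pair the samples. Bisulfite data were not analysed here.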

Additional observations from a re-analysis of the deposited data

Results flagged for a closer look

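The change from GV oocyte to zygote differed between the genotypes by a test of the difference itself. That test called 3006 members with a higher change without Cxxc1 and 947 with a lower one, and this balance turned under median-of-ratios scaling, to 1833 and 2841.

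The genes with the largest called differences were picked out by the same test. Upward, in log2 units, these were Eif3j1 at 7.15, Srp54c at 4.60, Cd9 at 4.39, Hmgb2 at 4.33, Paip2 at 4.32, Ube2t at 4.24, Hist1h2bc at 4.17 and Timm9 at 4.11. Downward they were Eif3j2 at -7.14, Plin2 at -2.004, Alyref2 at -1.98, Tceal8 at -1.95, Lmo4 at -1.77, Bcl2l1 at -1.57, Cacng7 at -1.52 and S100a14 at -1.44. Eif3j1 and Eif3j2 are near-identical copies whose high values changed places between libraries of 1 group, and Srp54c has close copies and ranged from 0.00107 to 31.3 FPKM within deletion GV oocytes. Plin2 and Tceal8 lost the call without GV deletion library 3 and under further alternatives, and Lmo4 with a pseudocount of 0.1.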

How the results depend on the processing

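Over all alternatives, 133 values of the main counts stayed within 1.5 times their reported value and 10 did not, all 10 under the scalings, which centre the libraries by construction. Median-of-ratios scaling gave 4411 genes called higher in wild type, a difference called lower for 2841 genes and higher for 1833, and 1828 relatively gained genes. Quantile normalization gave 4765 genes called higher without Cxxc1, 4260 lower and 4734 higher in wild type, a difference called lower for 1819 and higher for 1768, and 2237 relatively gained genes. Lost transcripts numbered 2255 and 1992 under these scalings, of which 2255 and 1990 were among the 2841 reported. Changes without Cxxc1 that reversed were those of Gdf9 (0.051) and Hist1h2bc (0.061) under median-of-ratios scaling and of S100a14 (0.60) under quantile normalization.

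Leaving out 1 library of the comparison at a time gave 5285 to 5481 falls and 2734 to 2847 rises without Cxxc1, 2760 to 2911 lost, 2817 to 3001 kept and 881 to 967 relatively gained genes, and differences called higher for 2708 to 3028 and lower for 773 to 891 genes. With the replicate block there were 5571 falls and 2947 rises without Cxxc1, 6574 and 2612 in wild type, and 2976 differences higher and 920 lower. Same-numbered libraries had deviations correlated at 0.016 to 0.087, under the limit of 0.1, so the numbers were not taken to pair them, although each library correlated best with its own number. Among named genes, 2665 of 2735 comparisons with an alternative kept direction and call, 56 lost the call, in 15 genes or contrasts, and 11 gained it. Of the gene list medians under the alternatives, 389 values stayed and 91 moved. Depth is unknown, and the pseudocount of 1 limits what low genes can show.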
